A study of Mus musculus with 16 samples.

Results

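The inhibitory and activating immunoreceptors of myeloid cells are described here through 10 genes, Siglece, Sirpa, Pirb, Pilra, Clec12a, Cd300lf, Trem1, Trem3, Lilra5 and Tyrobp, of the 49315 genes listed in the count files. They were chosen by name, as receptors that act through inhibitory motifs (ITIM) or through the adaptor DAP12 and its relatives. All 10 were found in each of the 24 files. RNA was sequenced from neutrophils of blood and lung, sorted by flow cytometry for Ly6G+/CD11b+/CD45.2+, in male mice of 8 to 12 weeks. The groups were WT and αD KO mice, the latter a knockout of the integrin subunit αD (CD11d, gene Itgad), either untreated (0h) or 12 hours after cecal ligation and puncture (CLP), a surgical model of abdominal sepsis. Each of the 8 groups had 3 count files under 2 samples. Below, 1a and 1b name the libraries of sample 1 and 2 names that of sample 2. The sources used here do not say whether libraries came from separate animals, so p-values measure the spread between these libraries, which may be technical.

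Inhibitory receptors of this kind carry ITIM sequences in their tail, which on phosphorylation recruit the phosphatases SHP-1 and SHP-2 and dampen signals from other receptors. Activating partners have a short tail and a charged residue in the membrane, through which they bind DAP12 (encoded by Tyrobp) or the Fc receptor gamma chain. These adaptors carry an activating motif (ITAM) that recruits the kinase Syk. Many of the genes sit in families with an inhibitory and an activating member, the so-called paired receptors. Neutrophils use them to set the threshold of degranulation, oxidative burst and cytokine release.

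Levels are given as CPM, counts scaled to a common library size after edgeR's TMM normalization. Total counts per library ranged from 5753476 to 29984954. Within each group, 1a and 1b were further apart than counting noise (chi-square per degree of freedom 78.99 to 426.6), so they were not a single library deposited under 2 names. The study describes its RNA-seq as done in triplicate, whereas the labels list 2 samples per group. Each file was taken as a library, with n = 3, which may exceed the number of independent samples. Fits with the files of sample 1 summed are given as an alternative. Within each group library 1b had the most genes with counts (29162 to 38844, against 17132 to 32666 in the other 16 libraries, ranges that overlap between groups), and across the 8 groups 56 of 72 values of the 9 members other than Lilra5 were lowest in library 1b. Itgad was at 12.5 to 101.9 CPM in libraries labelled αD KO and at 0.0583 to 3.66 CPM in those labelled WT, so it separated the genotypes but was higher in the knockout, and groups are named by their labels. Along the axis from WT lung 0h (0) to WT lung 12h (1), over the 1340 genes called in that comparison, αD KO lung 0h library 2 was at 1.03, and αD KO lung 12h libraries 1a and 2 were at 0.0994 and 0.188. These 3 libraries stand nearer to the other time than to their label, and values of αD KO lung are given with and without them where a result rests on them. Without them αD KO lung at 12h is library 1b alone and at 0h libraries 1a and 1b. Since they were left out for where they stand in time, and a lone library has no spread of its own, values without them are given as a description with no test. The genes that mark neutrophils, among them S100a8 and Ly6g, were present in every library, with a summed level of 29383 to 213622 CPM. In sorted bulk cells, fewer cells of a type and less RNA per cell cannot be told apart.

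The promoters of 4 members described at length below, Pirb, Cd300lf, Trem1 and Clec12a, are shown from 150 bases before to 20 bases after the start of the gene in RefSeq (GRCm38.p6), read 5′ to 3′ on the strand of the gene. Capitals mark matches, on either strand, to AGGAAGT, a core of the sites bound by the myeloid factor PU.1, or to TTGCGCAA, the palindrome of C/EBP factors. No positions of the 2 motifs overlapped.
Pirb, chr7:3720363-3720532, minus strand: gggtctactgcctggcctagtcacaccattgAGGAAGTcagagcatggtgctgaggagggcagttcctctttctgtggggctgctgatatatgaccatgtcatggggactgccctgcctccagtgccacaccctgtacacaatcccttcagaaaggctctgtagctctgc
Cd300lf, chr11:115133973-115134142, minus strand: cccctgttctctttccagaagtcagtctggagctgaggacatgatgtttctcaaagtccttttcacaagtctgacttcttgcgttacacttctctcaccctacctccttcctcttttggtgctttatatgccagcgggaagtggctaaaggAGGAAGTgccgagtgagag
Trem1, chr17:48232589-48232758, plus strand: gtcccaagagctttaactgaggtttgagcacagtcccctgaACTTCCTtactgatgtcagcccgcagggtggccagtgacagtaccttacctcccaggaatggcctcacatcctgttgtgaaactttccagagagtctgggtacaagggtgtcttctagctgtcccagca
Clec12a, chr6:129350094-129350263, plus strand: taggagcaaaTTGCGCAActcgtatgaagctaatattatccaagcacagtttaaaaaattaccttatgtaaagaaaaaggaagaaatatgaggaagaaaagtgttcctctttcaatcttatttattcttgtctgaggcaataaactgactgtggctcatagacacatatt
RefSeq promoters were at hand for 7 of the 10 members, and over the 300 bases of each (250 before to 50 after the start) AGGAAGT was found in 4, those of Pirb, Pilra, Cd300lf and Trem1, against 9.35% of 32851 mouse promoters. TTGCGCAA was found in the Clec12a promoter and in 0.183% of all promoters. The Clec12a promoter also held TGANTCA, the letters of an AP-1 site, 213 bases before the start and so outside the stretch shown, as did 7.81% of all promoters. The motifs were chosen after the sequences were seen, and a match describes the sequence and is not a measured site. The start used by RefSeq for Clec12a lies inside the gene as the count files place it (chromosome 6, 129342691 to 129365303), so another start exists in that annotation.

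Per kilobase of exon, Tyrobp was the highest of the 10 genes in every library, with a median of 4328 CPM per kb. Pirb, an inhibitory receptor for MHC class I, had a median of 442.0 CPM per kb, Trem3 382.8 and Cd300lf 310.8. Siglece, Trem1 and Pilra lay close together, at 238.3, 226.6 and 218.5 CPM per kb, and their order changed from library to library, with Trem1 ranking from 2 to 8. Sirpa followed at 125.3 CPM per kb. Clec12a, at 23.7 CPM per kb, was ninth in all 24 libraries, and Lilra5 was last in all of them at a median of 0.211 CPM per kb. DAP12 RNA therefore exceeded that of each receptor, and the inhibitory Pirb exceeded Trem1 at the median.

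**Figure D1:**
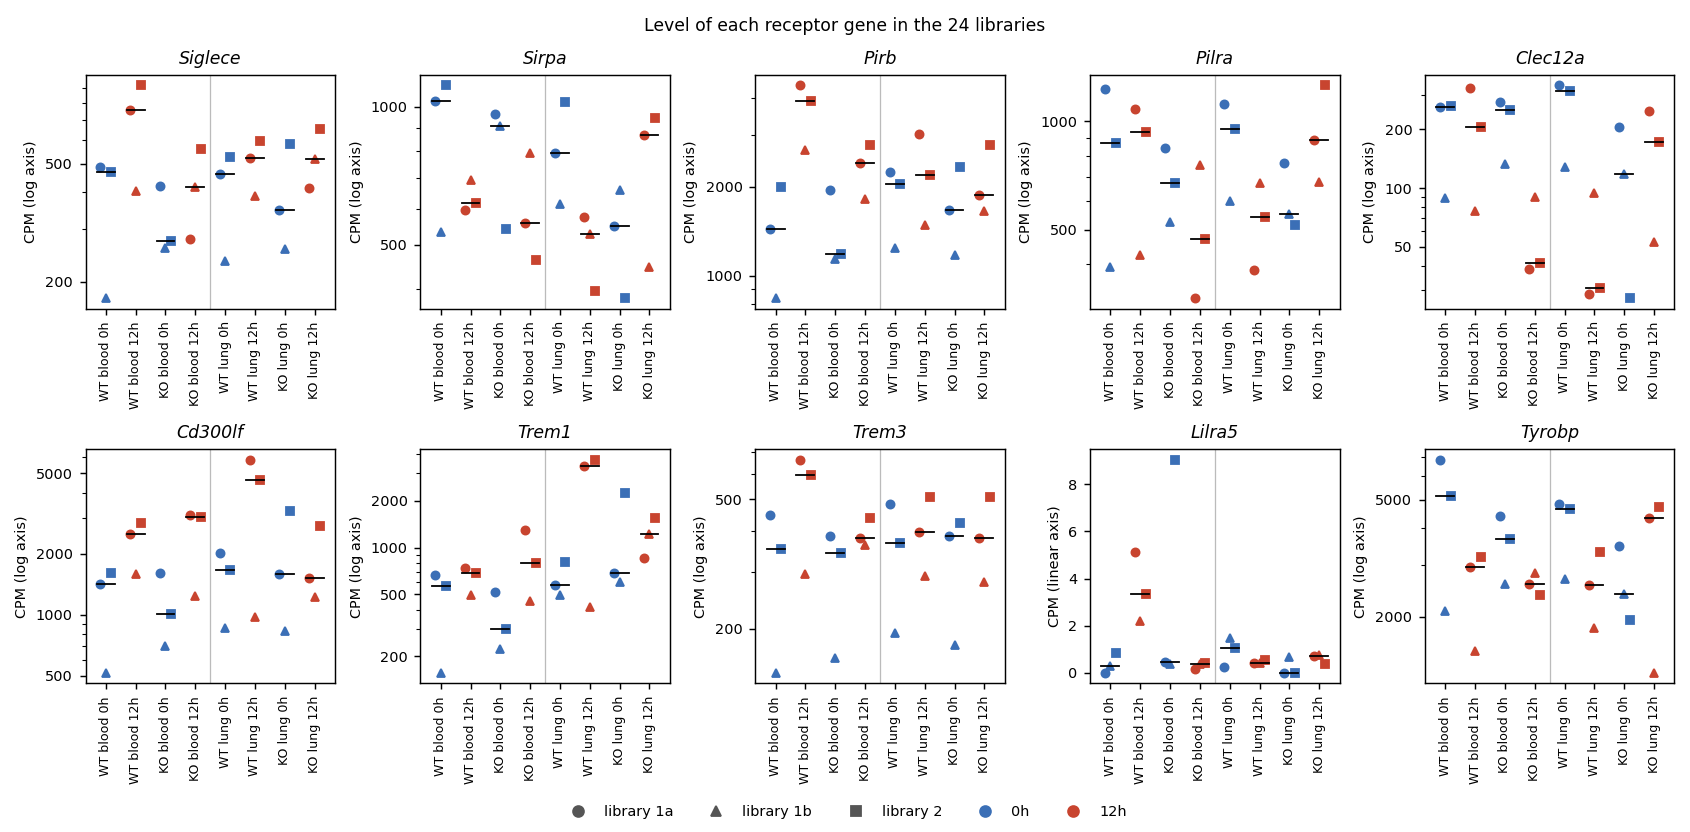
CPM (y axis, log scale except for Lilra5) of each of the 10 genes in the 8 groups (x axis), with 1 point per library, its shape giving the library and its colour the time, and a black line at the median of the 3 libraries. Clec12a ran from 27.3 to 336.9 CPM and Trem1 from 156.9 to 3667 CPM, whereas Trem3 stayed between 146.6 and 661.4 CPM.

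Pirb lies on chromosome 7 from 3711409 to 3720391 and was higher in every library of WT blood after CLP, without passing the test. It was 1442, 839.5 and 1996 CPM at 0h in libraries 1a, 1b and 2, and 4431, 2678 and 3917 CPM at 12h. All 12h libraries were above all 0h libraries. The log2 fold change was 1.18 (standard error 0.39) and the adjusted p was 0.0904, above the limit of 0.05 that, with an absolute log2 fold change above 1, defines a call. Here the libraries of the same number deviated in the same way, and a fit blocked by library number called Pirb (log2 fold change 1.22, adjusted p = 0.0495), as it was by DESeq2, the tool of the study's methods (adjusted p = 0.00043), and with the files of sample 1 summed (adjusted p = 0.0257). The groups overlapped in αD KO blood, with 1956, 1143 and 1180 CPM at 0h and 2412, 1819 and 2768 CPM at 12h (0.49 ± 0.30 SE on the log2 scale, adjusted p = 0.331). The genotype by time interaction for Pirb in blood was -0.55 (standard error 0.65, adjusted p = 1.00), so the changes in WT and αD KO were not shown to differ.

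Siglece, a receptor for sialic acid, and Pilra, a receptor for sialylated glycoproteins, were not called in any comparison fitted with all libraries. Siglece was 486.9, 176.4 and 468.9 CPM in WT blood at 0h and 758.9, 405.2 and 917.1 CPM at 12h, so that the log2 fold change was 0.68 (standard error 0.42, adjusted p = 0.333). Library 1b was the lowest of its group at both times, and the groups overlapped through it. Pilra in WT lung was 1113, 599.7 and 951.5 CPM at 0h and 384.9, 674.7 and 541.0 CPM at 12h (-0.68 ± 0.47 SE on the log2 scale, adjusted p = 0.401). Without WT lung 12h library 1b the change of Pilra was -1.24 and was called (adjusted p = 0.0257), in this 1 of 12 alternatives only. Pilra overlaps Zcwpw1 on the other strand, and the strand of counting is not given in the sources used here, so reads of the 2 genes may be mixed.

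Sirpa, on chromosome 2 from 129592835 to 129632228, encodes the inhibitory receptor for the self signal CD47. It was 793.6, 613.9 and 1025 CPM in WT lung at 0h and 575.0, 528.2 and 396.3 CPM at 12h. Every 12h library lay below every 0h library, and the log2 fold change was -0.69 (standard error 0.40, adjusted p = 0.322). The fitted values in blood were similar in size, -0.64 in WT (standard error 0.37, adjusted p = 0.299) and -0.64 in αD KO (standard error 0.39, adjusted p = 0.331), with overlapping groups. None passed the threshold, but without WT lung 12h library 1b the change of Sirpa in WT lung was -1.07 and was called (adjusted p = 0.0357). This was the only 1 of 12 alternatives to call it. In αD KO lung Sirpa was 549.8, 660.2 and 382.8 CPM at 0h and 870.1, 447.9 and 947.3 CPM at 12h, so the groups overlapped. The fitted change there was 0.49 (standard error 0.42, adjusted p = 1.00) with all libraries and -0.35 without the 3 libraries away from their label, which leaves 12h library 1b alone.

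Clec12a, an inhibitory C-type lectin that senses dead cells and uric acid crystals, fell in αD KO blood after CLP. It was 275.5, 133.6 and 252.1 CPM at 0h and 38.6, 89.8 and 41.3 CPM at 12h, with no overlap. The log2 fold change was -2.10 (standard error 0.44, adjusted p = 0.0287), the only call among the 10 genes in any comparison by edgeR as fitted here. The call was lost without αD KO blood 0h library 1a (adjusted p = 0.147) or 2 (0.0817), without 12h library 1a (0.128) or 2 (0.152), and with all 8 groups in a single fit (0.182), while the fitted value stayed between -1.85 and -2.66 in these and in the fits without library 1b of either time, which kept the call.

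In WT blood Clec12a was 259.9, 89.2 and 263.1 CPM at 0h and 327.7, 76.4 and 205.2 CPM at 12h (-0.23 ± 0.51 SE on the log2 scale, adjusted p = 0.797). The difference between the genotypes in this change was -1.75 (standard error 0.86, adjusted p = 1.00) and did not pass. At 12h in blood Clec12a was lower in αD KO than in WT by a fitted -1.70 (standard error 0.54, adjusted p = 0.962), with WT library 1b inside the range of the αD KO libraries. Without the filter on low counts this difference of Clec12a was called (log2 fold change -1.79, adjusted p = 0.00174).

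In WT lung Clec12a was 336.9, 128.5 and 313.6 CPM at 0h and 28.7, 94.7 and 30.7 CPM at 12h. The groups did not overlap, and library 1b lay nearest to the other group at both times. The log2 fold change was -2.17 (standard error 0.69, adjusted p = 0.0887), which missed the threshold. DESeq2 called it (adjusted p = 0.00645), and so did edgeR without the filter on low counts (0.00972), with the files of sample 1 summed (0.0167) and without WT lung 12h library 1b (0.00134). In αD KO lung it was 204.4, 118.1 and 27.3 CPM at 0h and 247.5, 52.6 and 172.7 CPM at 12h, where the low 0h value and the high 12h values were those of the 3 libraries that stand away from their label. The fitted change was 0.39 (standard error 0.73, adjusted p = 1.00) with all libraries and -1.55 without these 3, with library 1b alone at 12h.

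Cd300lf, which binds phospholipids of dying cells and is mainly inhibitory, had fitted log2 fold changes of 0.79 to 1.17 in blood of both genotypes and in WT lung, none of them a call. In WT lung it was 2018, 864.9 and 1654 CPM at 0h and 5808, 971.2 and 4604 CPM at 12h (1.17 ± 0.59 SE on the log2 scale, adjusted p = 0.249). Libraries 1a and 2 at 12h were above all 0h libraries, and library 1b was not. Its values in αD KO blood were 1613, 704.6 and 1013 CPM at 0h and 3111, 1233 and 3020 CPM at 12h (0.93 ± 0.39 SE on the log2 scale, adjusted p = 0.170). In WT blood the fitted change was 0.79 (standard error 0.44, adjusted p = 0.282). Without WT lung 12h library 1b the change in WT lung was called (adjusted p = 0.0162), as it was with the files of sample 1 summed (0.0494). Cd300lf overlaps Rab37 on the other strand.

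Trem1, on chromosome 17 from 48232768 to 48246924, encodes an activating receptor that amplifies inflammatory signals through DAP12. In WT lung it was 577.9, 496.5 and 809.1 CPM at 0h and 3351, 412.9 and 3667 CPM at 12h. Libraries 1a and 2 at 12h were above all 0h libraries, and library 1b was below all of them. The log2 fold change was 1.80 (standard error 0.65, adjusted p = 0.122), not a call. DESeq2 called it (adjusted p = 0.0268), as did edgeR with the files of sample 1 summed (0.0440) and without library 1b of WT lung 12h (0.00222). The positions of these libraries on the WT lung axis were 1.21, 0.660 and 1.05, with library 1b the least far along. The genes of the axis were called between these same groups, so positions of WT 12h libraries toward 1 were partly set by that choice.

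In αD KO lung Trem1 was 686.1, 596.7 and 2238 CPM at 0h and 853.6, 1215 and 1548 CPM at 12h. The highest 0h value was that of library 2, which stands away from its label. The log2 fold change was 0.15 (standard error 0.58, adjusted p = 1.00) with all libraries and 1.00 without the 3, with library 1b alone at 12h. In αD KO blood Trem1 was 516.3, 222.3 and 298.3 CPM at 0h and 1294, 456.0 and 802.0 CPM at 12h (1.08 ± 0.40 SE on the log2 scale, adjusted p = 0.128), and in WT blood 671.4, 156.9 and 565.9 CPM against 741.4, 494.5 and 691.5 CPM (0.31 ± 0.47 SE on the log2 scale, adjusted p = 0.698). The groups overlapped in both.

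**Figure D2:**
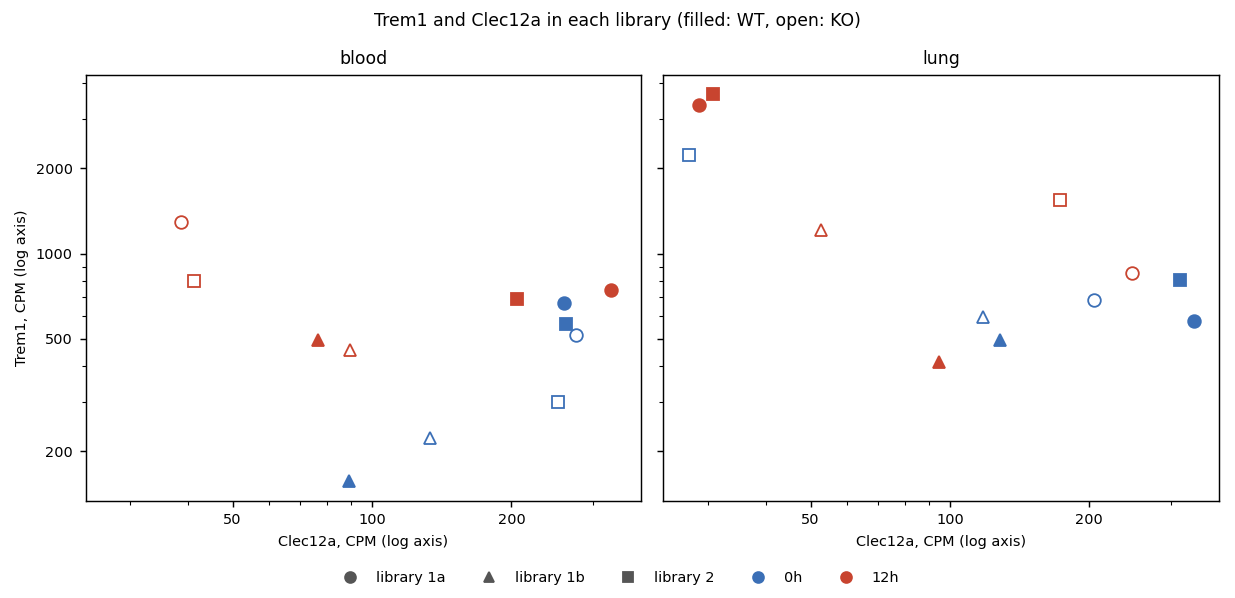
Trem1 (y axis) against Clec12a (x axis), both in CPM on log axes, with 1 point per library, blood on the left and lung on the right, filled for WT and open for αD KO. In lung the WT 12h libraries 1a and 2 and αD KO 0h library 2 stand together at low Clec12a (27.3 to 30.7 CPM) and high Trem1 (2238 to 3667 CPM).

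Trem3, the neighbour of Trem1 on chromosome 17 and also a DAP12 receptor, had the narrowest range of group medians of the 10 genes, 0.80 on the log2 scale. In WT lung it was 482.2, 194.7 and 367.5 CPM at 0h and 396.3, 291.6 and 508.5 CPM at 12h, with a fitted difference of 0.15 on the log2 scale (standard error 0.40, adjusted p = 0.856). Over the 24 libraries the genes most like it by Pearson's r of log2 CPM were Ifi27 (0.964), Mfsd14a (0.941), Mcemp1 (0.927), Pdlim2 (0.919) and Cdc123 (0.918). These libraries differ in depth and include the libraries 1b, which differ from the others, and r is given as a description.

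Lilra5, an activating receptor that pairs with the Fc receptor gamma chain, was near the limit of detection, between 0 and 9.04 CPM, with a median of 0 CPM in αD KO lung at 0h. Its range of group medians, 5.96 on the log2 CPM scale, was the widest of the 10 genes, but the lowest median was set by the prior count of 1, so the size of this range is not a measured one. It had 0, 3 and 20 counts in WT blood at 0h and 88, 44 and 48 counts at 12h, or 0 to 0.842 CPM against 2.21 to 5.13 CPM. The groups did not overlap, and the fitted log2 difference of 3.04 (1.27 SE, adjusted p = 0.158) did not pass. In αD KO blood at 12h it had 2, 4 and 6 counts, or 0.143 to 0.429 CPM, below all WT libraries at 12h (log2 fold change -3.45, standard error 0.60, adjusted p = 0.962, against 0.0128 by DESeq2 and 0.00507 by edgeR without the filter). αD KO blood 0h library 2 had 244 counts, 9.04 CPM, whereas libraries 1a and 1b of that group had 11 and 5 counts. The same library also had the highest sums in its group for 6 of the 8 lists of other cell types, with T and NK cell markers summing to 356.9 CPM against 28.9 and 10.8 CPM, dendritic cell markers to 132.99 against 28.4 and 17.6 CPM, B cell markers to 1558 against 567.5 and 326.7 CPM, and monocyte and macrophage markers to 1550 against 1146 and 613.4 CPM in libraries 1a and 1b. Platelet (640.8 CPM) and erythroid (6553 CPM) markers were also highest there, whereas eosinophil markers were lowest (36.4 CPM against 54.9 and 52.6 CPM) and lung structural markers (4.26 CPM) lay between 3.11 and 13.2 CPM. Their part in the Lilra5 value was not tested. Among the genes most like Lilra5 were Blvra (r = 0.726), Rhbdd2 (0.723), Cd300e (0.720) and Fh1 (0.697) over the 24 libraries.

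Tyrobp, on chromosome 7 from 30413760 to 30417585, encodes DAP12 itself. In WT blood it was 6826, 2086 and 5163 CPM at 0h and 2961, 1528 and 3178 CPM at 12h. Libraries 1a and 2 were higher at 0h than any library at 12h, and 0h library 1b overlapped the 12h group. The log2 fold change was -1.07 (standard error 0.48, adjusted p = 0.188). DESeq2 called it (adjusted p = 0.0351), as did edgeR with the files of sample 1 summed (0.0235) and without WT blood 0h library 1b (0.0219). The fitted values were -0.64 in αD KO blood (standard error 0.29, adjusted p = 0.194) and -0.71 in WT lung (standard error 0.42, adjusted p = 0.331). Tyrobp in αD KO lung was 3472, 2391 and 1941 CPM at 0h and 4333, 1289 and 4719 CPM at 12h, the highest values being those of 12h libraries 1a and 2, which stand away from their label. The fitted change of Tyrobp there was 0.37 (standard error 0.53, adjusted p = 1.00) with all libraries and -1.11 without the 3, where 12h is library 1b alone, the lowest of its group. Trem1 as a percentage of Tyrobp, both per kilobase, was 1.67% to 2.44% in WT blood at 0h and 4.84% to 7.21% at 12h, with no overlap. In WT lung it was 2.67% to 4.13% at 0h and 29.1%, 5.02% and 24.6% at 12h in libraries 1a, 1b and 2. The groups did not overlap in αD KO blood either, at 1.81% to 2.60% and 3.61% to 11.1%, and overlapped in αD KO lung, where 0h library 2 was at 25.7% and the 12h libraries were at 4.39%, 20.98% and 7.30%. These ratios were not tested.

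**Figure D3:**
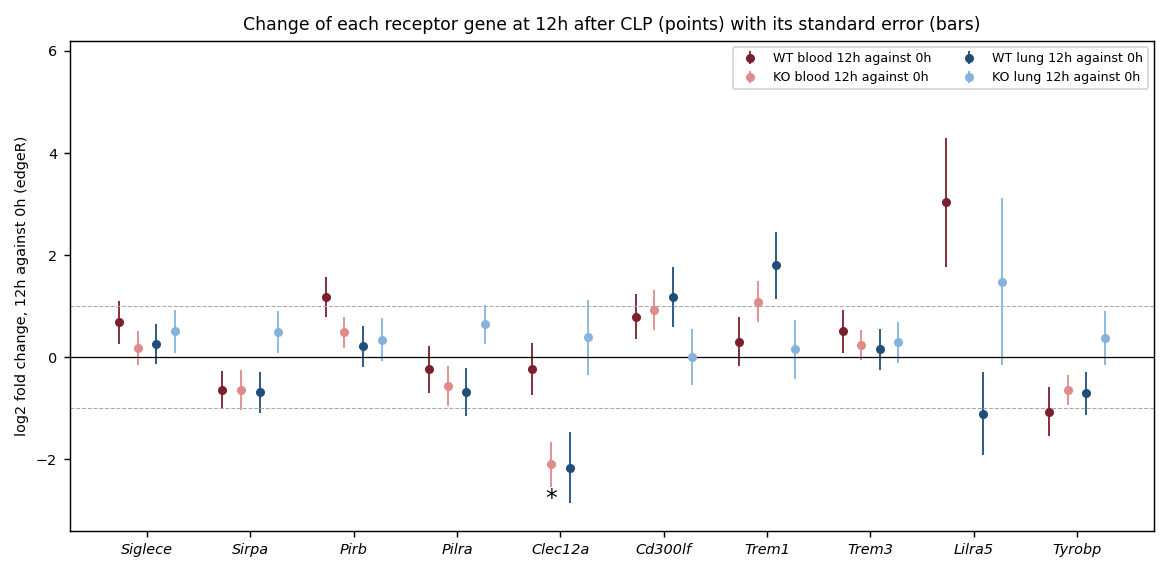
Log2 fold change of 12h against 0h (y axis) for each gene (x axis) in WT and αD KO blood and lung, as points with the standard error of the edgeR fit as bars, dashed lines at -1 and 1, and an asterisk at the call of Clec12a in αD KO blood (-2.10). Lilra5 is not shown in αD KO blood, where it did not pass the filter on low counts.

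Counted over all comparisons, few of the genes were called, while the counts of all genes differed widely between comparisons. After CLP, 0 of 10 members were called in WT blood, where 13.5% of 14625 genes tested were, 0 of 10 in WT lung (9.02% of 14859 genes) and 1 of 9 in αD KO blood (8.75% of 14156 genes). In αD KO lung 0 of 10 were called, and 0% of 17939 genes (72 genes had an unadjusted p under 0.05, and DESeq2 called 0). Groups that did not overlap were found for 2 members in WT blood (34.7% of genes tested), 2 in WT lung (28.5%), 1 in αD KO blood (32.2%) and 0 in αD KO lung (2.88%), so in the first 3 comparisons the members' shares lay under those of all genes. The median log2 fold change of the members was 0.41, -0.26 and 0.18 in WT blood, WT lung and αD KO blood, and that of all genes tested was -0.15, 0.03 and -0.14.

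Between αD KO and WT, 0 of the members were called by edgeR at either time in either tissue. In blood at 0h the share called over all genes was 0.0115% and in blood at 12h, lung at 0h and lung at 12h it was 0%, 0% and 0%. By DESeq2, 5, 14, 7 and 152 of all genes were called in these comparisons, and 0, 1, 0 and 0 members. Groups did not overlap for 0 members in blood at 0h (2.98% of genes tested), 1 in blood at 12h (7.92%), 0 in lung at 0h (6.82%) and 1 in lung at 12h (10%), namely Lilra5 and Pilra. Pilra in lung at 12h was 884.7, 675.8 and 1259 CPM in αD KO libraries, whereas WT libraries had 384.9, 674.7 and 541.0 CPM. The fitted difference was 0.91 on the log2 scale (standard error 0.48, adjusted p = 0.631) and became 0.59 with αD KO library 1b alone, the one that does not stand away from its label. The unadjusted p was under 0.05 for 0, 3, 0 and 0 members in these 4 comparisons, and for 123 of 17356, 505 of 12596, 340 of 18232 and 1390 of 16764 of all genes tested. In lung at 0h, leaving out αD KO library 2 moved the fitted difference of Clec12a from -1.07 to -0.63 and that of Trem1 from 0.82 to 0.08.

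Between lung and blood at 12h in WT the receptors with the largest fitted values were again Trem1, Clec12a and Lilra5. In WT at 12h Trem1 was 3351, 412.9 and 3667 CPM in lung and 741.4, 494.5 and 691.5 CPM in blood, and the fitted difference was 1.88 on the log2 scale (standard error 0.60, adjusted p = 0.185). Lilra5 was lower in lung, 0.400 to 0.523 CPM against 2.21 to 5.13 CPM, without overlap (log2 fold change -2.83, standard error 0.58, adjusted p = 0.113). DESeq2 called both (adjusted p = 0.0232 and 0.00801). At 0h in αD KO, Trem1 was higher in every lung library (596.7 to 2238 CPM) than in every blood library (222.3 to 516.3 CPM), by a fitted 1.73 (standard error 0.57, adjusted p = 1.00) that was 1.05 without lung library 2. edgeR called 0 members in WT at 0h (0% of all genes), WT at 12h (0.0442%), αD KO at 0h (0%) and αD KO at 12h (0.0548%). Groups did not overlap for 0, 2, 1 and 0 members, against 5.68%, 22.4%, 6.61% and 28.8% of genes tested. At 12h in αD KO, Clec12a was higher in lung by a fitted 1.55 (standard error 0.56, adjusted p = 0.170), and by 0.00086 with lung library 1b alone, without the αD KO lung libraries away from their label.

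No difference between changes passed. The genotype by time terms in blood and lung and the tissue by time terms in WT and αD KO were called for 0 of 10 members each, and for 0%, 0%, 0% and 0% of genes tested. By DESeq2, 0 members were called in all 4, and 1, 317, 95 and 261 of all genes. The member with the smallest p in lung was Pilra, whose genotype by time term was 1.41 (standard error 0.58, adjusted p = 0.429) with all libraries and 0.89 without the 3 αD KO lung libraries away from their label, with library 1b alone at 12h in αD KO. The unadjusted p was under 0.05 for 1, 3, 2 and 2 members in the 4 terms, and for 232 of 19792, 2432 of 23211, 1290 of 23497 and 2352 of 22218 of all genes tested.

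Around these genes, other activating receptors were taken as a list. Of its 33 genes 27 were in the files. By edgeR, 8 fell and 1 rose among 25 tested in WT blood, 7 fell and 0 rose among 22 in WT lung, and 13 fell and 2 rose among 25 in αD KO blood. Of all genes tested 841, 562 and 707 fell by the same rule, and 13.5%, 9.02% and 8.75% were called in either direction. The medians of the tested genes were -2.29, -0.56 and -2.60 on the log2 scale. A gene that is high at 0h alone passes the filter through that group, so these counts describe the list. The 4 genes with the smallest p were Sirpb1c, Sirpb1a, Cd300c2 and Sirpb1b in WT blood, Cd300c, Cd300c2, Sirpb1a and Sirpb1b in WT lung, and Cd300c2, Sirpb1b, Cd300ld and Cd300lb in αD KO blood. Some genes of the list went the other way. Clec5a, Clec4e and Treml2 were higher at 12h than at 0h without overlap in blood of both genotypes. Clec5a in WT blood was 336.2, 107.0 and 289.2 CPM at 0h and 850.0, 536.6 and 700.6 CPM at 12h. In αD KO lung 0 of 25 were called.

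Sirpb1b, which signals through DAP12 where Sirpa inhibits, was 635.8, 216.9 and 635.2 CPM in WT blood at 0h and 11.5, 16.8 and 47.0 CPM at 12h (-4.48 ± 0.65 SE on the log2 scale, adjusted p = 0.00646). For αD KO blood the values were 499.5, 323.4 and 399.7 CPM at 0h and 34.5, 17.2 and 22.6 CPM at 12h (-4.27 ± 0.34 SE on the log2 scale, adjusted p = 0.00120), and in WT lung 745.3, 354.9 and 740.6 CPM against 83.3, 59.0 and 204.0 CPM (-2.50 ± 0.51 SE on the log2 scale, adjusted p = 0.0260). No groups overlapped. In αD KO lung it was 482.6, 358.5 and 69.8 CPM at 0h and 594.4, 50.1 and 684.4 CPM at 12h, where the 3 libraries that stand away from their label again held the values of the other time. Sirpb1a, Sirpb1b and Sirpb1c are near-identical copies, and reads counted only where unique may be split or lost among them.

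Cd300ld, an activating receptor of the Cd300 cluster, was 1499, 963.7 and 1047 CPM in αD KO blood at 0h and 202.0, 137.5 and 140.1 CPM at 12h (-3.09 ± 0.31 SE on the log2 scale, adjusted p = 0.00248). In WT blood its log2 fold change was -2.80 (standard error 0.45, adjusted p = 0.00881) and in WT lung -2.31 (standard error 0.48, adjusted p = 0.0266). Cd300c2 fell in all 3 comparisons, with log2 fold changes of -3.33 in WT blood (standard error 0.35, adjusted p = 0.00250), -3.27 in WT lung (standard error 0.52, adjusted p = 0.0132) and -4.10 in αD KO blood (standard error 0.27, adjusted p = 0.000973). Cd300c was far lower in level, with 320 counts summed over αD KO blood at 0h and 1 at 12h.

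Set beside an inhibitory member of the same family within each library, which needs no scaling between libraries, the shift was seen in every library of blood. The 3 Sirpb1 genes together, per kilobase, were 164.4%, 121.4% and 161.0% of Sirpa in WT blood at 0h and 9.5%, 8.56% and 20.6% at 12h. Those of αD KO blood were 147.6%, 104.3% and 232.5% at 0h and 22.1%, 5.52% and 14.7% at 12h. In WT lung they were 165.7% to 270.9% at 0h and 35.7%, 28.9% and 141.6% at 12h, so library 2 stayed above Sirpa while the groups did not overlap.

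Cd300lb, Cd300ld, Cd300c and Cd300c2 together were 396.7% to 594.2% of Cd300lf in WT blood at 0h and 31.7% to 54.7% at 12h. The range in αD KO blood was 370.0% to 532.8% at 0h and 19.7% to 44.9% at 12h, and in WT lung 350.4% to 440.7% at 0h and 13.4%, 117.5% and 32.2% at 12h. Cd300a, another inhibitory receptor of this family, fell in WT blood, from a mean of 171.9 CPM per kb at 0h to 62.5 at 12h. Cd300lb and Cd300ld were each above it at 12h, at means of 75.1 and 88.5 CPM per kb. The fall below equal levels in WT blood thus rests on the choice of Cd300lf. With 3 libraries against 3, an exact permutation test cannot give a p under 0.1, so the ratios were not tested. Sirpb1c, Cd300lb and the other genes of these sums were named for their families after their values were seen.

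Pilrb1 and Pilrb2 together were 131.6% to 139.0% of Pilra in WT blood at 0h and 93.1% to 111.5% at 12h. Pira2, the activating relative of Pirb for which a symbol was found, was 12.6% to 19.8% of Pirb in WT blood at 0h and 6.56% to 8.25% at 12h, and 13.8% to 16.3% against 6.04% to 8.12% in αD KO blood. In WT lung the groups overlapped for both, with Pira2 at 14.5% to 17.7% of Pirb at 0h and 12.3% to 20.8% at 12h, and the Pilrb genes at 131.1% to 139.5% of Pilra at 0h and 95.2% to 157.4% at 12h. Pira genes are close copies of each other and of Pirb, and 6 further Pira symbols of the list were not found. None of Pilrb1, Pilrb2 and Pira2 was called in these comparisons.

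**Figure D4:**
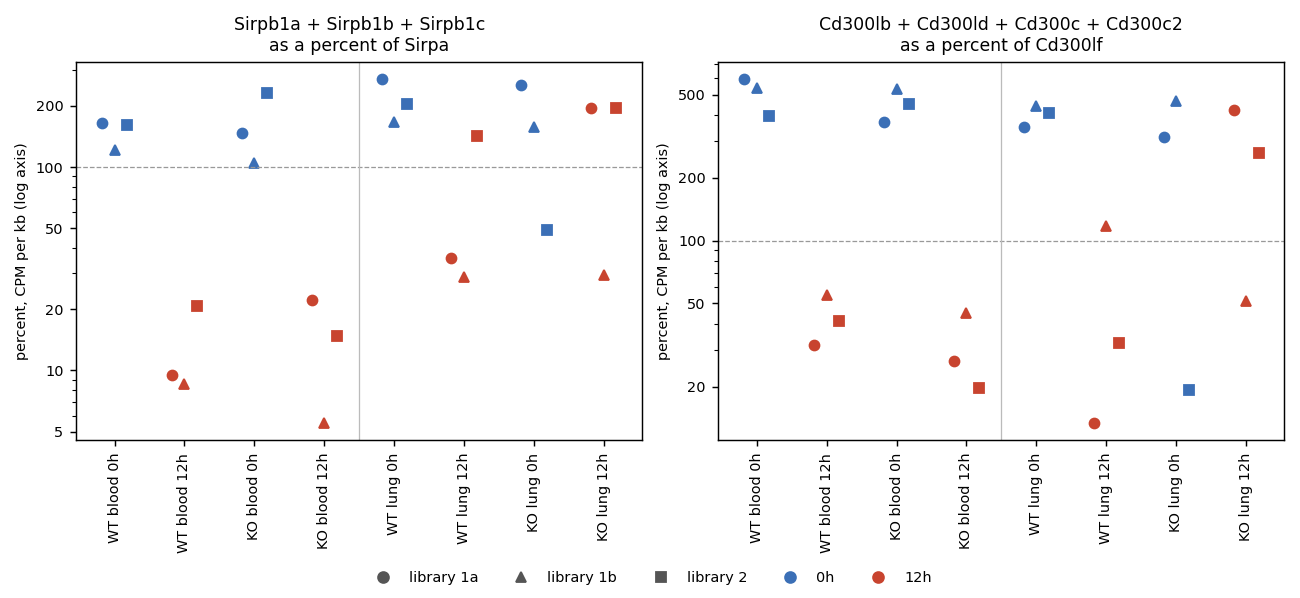
Activating genes as a percentage of an inhibitory gene of their family (y axis, log scale, from CPM per kb) in each library of the 8 groups (x axis). Sirpb1 genes over Sirpa are on the left and Cd300 genes over Cd300lf on the right, with a dashed line at equal levels. Cd300a, also inhibitory, is not shown. In blood all 0h libraries are above 100% and all 12h libraries are below 55%, and in αD KO lung library 2 of 0h (48.9% and 19.1%) and libraries 1a and 2 of 12h (195.1% and 195.9% on the left) stand with the other time.

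Summed markers of some other cell types also differed between these groups. The B cell list summed to 265.0 to 1216 CPM in WT blood at 0h and 40.5 to 280.3 CPM at 12h, with 7 of 7 markers with counts at both times. The B cell marker Cd79a did not fall there. It was 7.15, 4.495 and 19.9 CPM at 0h and 11.5, 5.37 and 25.6 CPM at 12h, so the sum does not describe every marker. Eosinophil markers (Epx, Prg2, Ccr3 and Siglecf) summed to 28.3 to 68.7 CPM at 0h and 5.77 to 8.00 CPM at 12h, with Prg2 at 0 at 12h, and without Siglecf to 2.36 to 6.86 CPM and 0.292 to 0.753 CPM. Dendritic cell markers summed to 20.1 to 32.9 CPM and 2.68 to 5.87 CPM, and platelet markers to 38.4 to 127.5 CPM and 5.29 to 29.5 CPM. The T and NK cell, erythroid and lung structural sums overlapped between the times. The monocyte and macrophage list as a whole overlapped (454.8 to 1219 CPM and 538.4 to 1055 CPM), but Csf1r within it was 822.9, 302.6 and 835.0 CPM at 0h and 142.4, 83.1 and 216.1 CPM at 12h, and Ly6c2 was higher at 12h. The neutrophil list summed to 29383 to 50059 CPM at 0h and 116925 to 213622 CPM at 12h. S100a8 held a large part of these sums, with 11474, 8852 and 14771 CPM at 0h and 97865, 42559 and 81458 CPM at 12h. The directions of the B cell, eosinophil and neutrophil lists were the same in αD KO blood and WT lung. Dendritic cell markers in αD KO blood summed to 17.6 to 132.99 CPM at 0h and 4.001 to 5.42 CPM at 12h. Csf1r there was 646.8, 462.7 and 686.5 CPM at 0h and 106.3, 104.5 and 153.5 CPM at 12h. Dendritic sums overlapped in WT lung (9.68 to 17.7 CPM and 2.79 to 20.1 CPM), where Csf1r was also lower at 12h. The part of other cells in the results on the receptors, the Clec12a call in αD KO blood among them, was not tested.

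Among 17 other inhibitory receptors, 16 of them in the files and tested, Siglecf and Siglecg fell in all 3 comparisons. Siglecf, a marker of eosinophils, was at a log2 fold change of -3.21 in WT blood (standard error 0.35, adjusted p = 0.00295), -3.43 in WT lung (standard error 0.88, adjusted p = 0.0493) and -4.35 in αD KO blood (standard error 0.48, adjusted p = 0.00345). Siglecg, known from B cells, was at -1.80, -2.24 and -3.00 (adjusted p = 0.0118, 0.0126 and 0.00543). Cd300a fell in WT blood (-1.68, adjusted p = 0.0327) and αD KO blood (-1.20, adjusted p = 0.0339), and was -0.50 in WT lung (adjusted p = 0.512). Fcgr2b, the inhibitory receptor for IgG, rose in WT blood from 44.5, 15.6 and 47.5 CPM to 196.2, 77.6 and 263.1 CPM (2.10 ± 0.48 SE on the log2 scale, adjusted p = 0.0279) and in WT lung (log2 fold change 2.53, standard error 0.42, adjusted p = 0.0151). Its values in αD KO blood, not a call, were 51.1, 21.04 and 84.6 CPM at 0h and 261.6, 107.1 and 252.2 CPM at 12h, also without overlap. Treml1, a platelet receptor, fell in αD KO blood (-3.84, adjusted p = 0.0366), where platelet markers summed to 23.5 to 640.8 CPM at 0h and 4.74 to 41.9 CPM at 12h. In all, 1 rose and 3 fell in WT blood, 1 rose and 2 fell in WT lung, and 0 rose and 4 fell in αD KO blood, and of all genes tested 13.5%, 9.02% and 8.75% were called in these comparisons.

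Downstream, Ptprj, a receptor phosphatase, rose in all 3 comparisons and Tec, a cytoplasmic kinase, fell in all 3. Ptprj was 12.99, 21.5 and 14.3 CPM in WT blood at 0h and 95.4, 104.4 and 86.8 CPM at 12h (2.33 ± 0.37 SE on the log2 scale, adjusted p = 0.00854), and rose by 3.64 in WT lung (adjusted p = 0.00991) and 1.62 in αD KO blood (adjusted p = 0.0111) on the log2 scale. Tec was -2.25, -1.72 and -1.85 in WT blood, WT lung and αD KO blood (adjusted p = 0.00661, 0.0242 and 0.0107). Ptpn11, which encodes SHP-2, rose in WT blood (1.33, adjusted p = 0.0231) and WT lung (1.57, adjusted p = 0.0349). Pik3cg fell in WT lung (-1.51, adjusted p = 0.0473) and αD KO blood (-1.52, adjusted p = 0.0286), and Card9 fell in αD KO blood (-1.42, adjusted p = 0.0377). Of 27 adaptors, kinases and phosphatases, all tested, 3 rose and 1 fell in WT blood, 2 rose and 2 fell in WT lung, and 2 rose and 3 fell in αD KO blood, beside the same shares of all genes (13.5%, 9.02% and 8.75%). Ptpn6 (SHP-1), Inpp5d (SHIP1) and Syk were not called in these comparisons.

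Of 7 ligands and partners of the members, Cd47, the ligand of Sirpa, rose. It was 328.6, 110.7 and 305.7 CPM in WT blood at 0h and 1571, 1145 and 1245 CPM at 12h (2.25 ± 0.43 SE on the log2 scale, adjusted p = 0.0162), and it rose by 2.03 in WT lung (standard error 0.42, adjusted p = 0.0260) and 2.53 in αD KO blood (standard error 0.36, adjusted p = 0.00721). Pglyrp1, a ligand of Trem1, had fitted values of 1.38, 1.21 and 1.26 (adjusted p = 0.0709, 0.270 and 0.117). Sftpa1, a surfactant protein of lung epithelium, was higher in lung than in blood in αD KO at 12h (log2 fold change 5.48, standard error 0.65, adjusted p = 0.0403), where lung structural markers summed to 45.4 to 189.8 CPM in lung and 3.29 to 4.39 CPM in blood. With αD KO lung library 1b alone, which leaves out the libraries away from their label, the log2 fold change of Sftpa1 was 4.38.

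The list counts changed when single libraries were left out. Calls of all genes under the same omissions are not given here, and whether the changes are particular to the lists was not tested. The activating receptors called in WT blood were 0 without 0h library 2, 12h library 1a or 12h library 2, and 2 without 0h library 1a. In WT lung they were 0 without any of the libraries 1a and 2, and 12 without 12h library 1b. In αD KO blood they were 4 without 0h library 1a, 8 without 0h library 2, 7 without 12h library 1a and 5 without 12h library 2. Inhibitory receptors called in WT blood and WT lung were 0 without any of the libraries 1a and 2, and adaptors, kinases and phosphatases likewise. For αD KO blood, without 0h library 1a or 12h library 2, inhibitory receptors fell from 4 to 1 called and adaptors, kinases and phosphatases from 5 to 0. With all 8 groups in a single fit both lists had 0 called in αD KO blood, and in WT lung 0 inhibitory receptors were. The Cd47 call was lost in WT blood without any of the libraries 1a and 2, in WT lung without any library except 12h library 1b, and in αD KO blood without 0h library 1a. It was also lost without the filter on low counts in WT blood and WT lung, and with all 8 groups in a single fit in WT lung and αD KO blood. With the library number as a block, 14 activating and 8 inhibitory receptors were called in WT blood, where same-numbered libraries deviated together, against 9 and 4 without it.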

How the data were processed

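RNA was sequenced from sorted neutrophils, with full-length cDNA amplification and tagmentation libraries. Per the labels and the methods, reads were trimmed (Trimmomatic 0.36), mapped (STAR 2.5.2b) to GRCm38 and counted where unique in exons. The deposited files hold raw counts, 1 whole number for each gene, that the authors had not normalized. Positions match GENCODE M21 (GRCm38) for 44858 genes. Counts were tested in R 4.3.3 with edgeR 4.0.16 (TMM, filterByExpr, quasi-likelihood F test, two-sided, only the groups compared, Benjamini-Hochberg over all genes tested), and a gene was called where the adjusted p was below 0.05 and the log2 fold change beyond 1 in size (interactions, adjusted p alone). DESeq2 1.42.0 was an alternative. Tables used Python 3.11.15. Standard errors were taken from the log2 fold change and F. The fit was tested on simulated data. The members and gene lists were chosen with earlier results of these data known.

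All 10 members were fitted in each comparison where they passed the filter on low counts, and values are given for some of these fits. Of each list of related genes the called genes were named, or the 4 with the smallest p where more were called. The 5 genes most like the members of widest and narrowest range were named by Pearson's r of log2 CPM with a prior count of 1. Some genes that these rules select are not reported here.

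To check pairing, deviations from the group means were correlated, over genes, between libraries of the same number. It exceeded 0.1 for every number in WT blood in time (0.459, 0.591 and 0.117) and in 5 other comparisons, and the labels state no pairing. Alternatives were RLE normalization, no filter, DESeq2, all 8 groups, sample 1 files summed, the block, libraries left out, the adjusted p alone, and the 3 αD KO lung libraries left out. Reads carry no molecular identifiers, so the precision given by depth covers counting error only.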

Additional observations from a re-analysis of the deposited data

How the results depend on the processing

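Of 1451 fitted values of the members in the comparisons of 2 groups under the alternatives, 1338 kept the direction of the reported value, and the largest reported log2 fold change that turned was 0.58 in size. The number of members called in WT blood in time (0) was 2 by DESeq2 (2909 of all genes, against 1975), 2 with the files of sample 1 summed and 1 with the replicate block (2692 of all genes), and 0 to 1 with a library left out. In WT lung in time (0) it was 1 without the filter, 2 by DESeq2 (2372 of all genes, against 1340), 3 with the files summed, and 0 to 5 with a library left out. In αD KO blood in time (1) it was 2 without the filter, 0 with all 8 groups, and 0 to 1 with a library left out. At 12h in blood, αD KO against WT (0), it was 2 without the filter and 1 by DESeq2 (14 of all genes, against 0). For WT lung against blood at 12h (0) it was 2 by DESeq2 (869 of all genes, against 6), 3 with the files summed, and 0 to 4 with a library left out. For αD KO lung against blood at 12h (0) it was 1 without the filter, 0 by DESeq2 (1249 of all genes, against 8), 1 with the files summed, and 0 to 1 with a library left out. The block changed no other of these counts, and the cause of these changes was not tested. Calls of all genes with the block rose from 6 to 65 in WT lung against blood at 12h and from 8 to 21 in αD KO. In both of these 12h comparisons the correlation of same-numbered libraries exceeded 0.1 for every number, and its part was not tested. In WT lung in time the calls fell from 1340 to 893.

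Without the 3 αD KO lung libraries away from their label, αD KO lung at 12h is library 1b alone, the library lowest in most members, and the values are no test of a group. Tyrobp turned from 0.58 to -0.68 for αD KO against WT lung at 12h, from 0.37 to -1.11 in αD KO lung in time and from 0.52 to -0.89 for αD KO lung against blood at 12h, and Sirpa from 0.49 to -0.35 in αD KO lung in time and from 0.45 to -0.32 for lung against blood. Leaving them out of the interactions was chosen after seeing the data, and the genotype by time term of Tyrobp in lung then turned from 1.16 to -0.32. Other directions that turned, none past the threshold, included these. Clec12a in αD KO lung in time was -1.55 without the 3 αD KO lung libraries and -0.0464 to 1.03 with a library left out. Clec12a at 0h in blood, αD KO against WT, was -0.0078 with the files summed and -0.19 to 0.42 with a library left out. Trem1 in αD KO lung in time was -0.0796 with the files summed and -0.25 to 0.96 with a library left out. Trem3 in WT lung in time was -0.044 without the filter and -0.21 to 0.50 with a library left out. With a library left out, Trem1 at 12h in blood, αD KO against WT, was -0.0139 to 0.60. In time, under the same omissions, Siglece was -0.0061 to 0.46 in αD KO blood and -0.0338 to 0.46 in WT lung, Pirb was -0.13 to 0.45 in WT lung, and in WT blood Clec12a was -0.68 to 0.0622, Pilra -0.52 to 0.16 and Trem1 -0.0684 to 0.63.

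Counts over the gene lists were recomputed under the same alternatives, a choice made after seeing the data. The inhibitory receptors called moved from 4 to 8 in WT blood by RLE, DESeq2 and the block, and to 1 with no filter and with all 8 groups. The activating receptors in αD KO blood were 8 with the files summed and 2 with all 8 groups. Those in WT lung moved from 7 to 2 with all 8 groups, and those in WT blood from 9 to 5 with no filter. The Pirb call under the block lay at the threshold. Library 1b, lower in most members, and n = 3 limit what the counts can show. Levels of Lilra5 rest on few counts.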
